A study of Mus musculus with 18 samples.

Results

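The 9 genes described here, Apod, Cthrc1, Fgl2, Edil3, Sparcl1, Agtr2, Ednrb, Aqp1 and Cdh13, were expressed in control feeders and had 0 to 3 counts in all in feeders labelled p53-defective. They were chosen on those values, from a list of 9 among 19630 genes measured, and transcripts were summed per gene. Feeders are embryonic fibroblasts that support mouse embryonic stem (ES) cells in culture. The series holds 18 mRNA sequencing libraries, 3 in each of 6 groups: control feeders alone, p53-defective feeders alone, ES cells cultured with control feeders, ES cells cultured with p53-defective feeders, ES cells from control feeder culture with the feeders removed, and ES cells for which ATN161, which inhibits integrin α5β1, replaced the feeders. The labels name no strain, age, passage or treatment beyond these, do not say which alteration of p53 the feeders carry or how feeders were removed, and do not say whether the 3 libraries of a group are separate cultures. The p-values below therefore measure the spread between libraries. The p53 label is the only stated difference between the feeder groups, so p53 cannot be told apart from a difference in cell source or culture.

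The 9 genes encode secreted and cell surface proteins of the kind through which stromal cells signal, attach or move water. Apod, Cthrc1, Fgl2, Edil3 and Sparcl1 encode secreted proteins, Agtr2 and Ednrb encode G protein-coupled receptors for angiotensin II and endothelins, Aqp1 encodes a water channel, and Cdh13 encodes a cadherin held in the membrane by a lipid anchor. Fibroblasts build and remodel matrix, and which of these products they make varies with their place of origin and culture state. p53 is a transcription factor that restrains growth after stress.

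Promoter sequences from RefSeq (GRCm38.p6, 250 bases before to 50 after the start) matched 5 of the 9 genes: Apod, Fgl2, Agtr2, Aqp1 and Ednrb. Those of 4 are given because Agtr2, Apod and Ednrb fell the most in co-culture on p53-defective feeders, on both scalings used below, and Aqp1 kept the most counts there. Each is written 5′ to 3′ along the gene's strand, and capitals mark CG dinucleotides, the sites of DNA methylation, which these data do not measure.
Apod (chr16:31314759-31315058, minus strand): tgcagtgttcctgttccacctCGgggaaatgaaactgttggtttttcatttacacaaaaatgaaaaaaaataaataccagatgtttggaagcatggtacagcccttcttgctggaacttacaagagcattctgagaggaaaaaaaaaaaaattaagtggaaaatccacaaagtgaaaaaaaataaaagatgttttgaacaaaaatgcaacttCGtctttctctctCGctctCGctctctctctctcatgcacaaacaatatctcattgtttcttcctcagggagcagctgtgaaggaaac
Agtr2 (chrX:21484374-21484673, plus strand): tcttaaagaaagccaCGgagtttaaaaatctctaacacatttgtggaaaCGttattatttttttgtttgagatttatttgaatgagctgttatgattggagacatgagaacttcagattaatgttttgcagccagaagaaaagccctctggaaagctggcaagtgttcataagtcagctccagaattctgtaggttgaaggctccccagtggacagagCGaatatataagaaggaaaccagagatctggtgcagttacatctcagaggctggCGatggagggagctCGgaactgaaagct
Ednrb (chr14:103843652-103843951, minus strand): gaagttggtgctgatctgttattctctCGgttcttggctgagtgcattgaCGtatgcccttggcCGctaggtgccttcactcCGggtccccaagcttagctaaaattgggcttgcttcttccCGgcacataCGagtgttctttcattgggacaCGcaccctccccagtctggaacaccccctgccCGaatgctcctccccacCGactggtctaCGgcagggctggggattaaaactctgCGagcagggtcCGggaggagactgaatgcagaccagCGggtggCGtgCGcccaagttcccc
Aqp1 (chr6:55336049-55336348, plus strand): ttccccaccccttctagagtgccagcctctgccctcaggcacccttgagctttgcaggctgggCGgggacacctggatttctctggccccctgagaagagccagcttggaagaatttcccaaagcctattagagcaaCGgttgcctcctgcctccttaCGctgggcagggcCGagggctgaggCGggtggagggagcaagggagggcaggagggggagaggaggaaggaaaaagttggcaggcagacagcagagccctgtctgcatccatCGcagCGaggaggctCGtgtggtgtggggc

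The promoters were unlike each other in base content. Apod was 37.3% G or C with 4 CG dinucleotides, Agtr2 41.3% with 5, Ednrb 58.7% with 15 and Aqp1 62.7% with 8, where the median of 32851 promoters was 7. The ratio of observed to expected CG was 0.384 for Apod, equal to the median of all promoters, 0.411 for Agtr2, 0.582 for Ednrb, 0.278 for Aqp1 and 0.601 for Fgl2. Motifs were searched as letters, TATAAA on the given strand and the others on both strands. TATAAA, in 8.32% of all promoters, was in none of the 5. CCAAT, in 37.4% of all, was found 1 time in Agtr2 and 2 times in Ednrb. GGGCGG, in 35.7% of all, was found 1 time each in Aqp1 and Fgl2, and TGANTCA, in 7.81% of all, 1 time in Fgl2. The Ednrb start used in this table lies within the annotated span of the gene. A match describes letters and not a bound site.

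Library totals were 15.12 to 19.83 M (mega) counts, and levels are counts per M (CPM) scaled by the TMM method, as mean ± SD of 3 libraries. Tests used edgeR's quasi-likelihood model of all 18 libraries, with p-values adjusted over the 15389 genes tested. All 9 genes passed the filter on low counts, which control feeders alone could carry. The labels were set against marker lists. The 20 fibroblast markers summed to 37800 to 45500 CPM in control feeders and 7036 to 10050 in feeders labelled p53-defective. All 20 were called lower in the latter on both scalings, and although none was at 0, Lum (271 against 0.0601 CPM) and Mfap5 (20.96 against 0.0423 CPM) nearly were. The 15 ES cell markers summed to 4123 to 4287 CPM on control feeders, 366.7 to 501.8 on p53-defective feeders, 5634 to 5772 with feeders removed and 6691 to 6923 with ATN161. Fibroblast markers were still present at 4981 to 5425 CPM in the libraries labelled as feeders removed and at 1220 to 1360 CPM with ATN161, against 7839 to 8242 on control feeders and 19670 to 27980 on p53-defective feeders. In such mixed RNA, fewer cells of a type and less RNA per cell cannot be told apart. Libraries were therefore also scaled on 432 ES-specific genes, at least 8-fold higher in both ES groups without feeders than in both feeder groups. Because such genes are scarce in feeders, this scaling is no separate check for the feeders alone.

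In the feeders alone, the values that chose the genes differed by 2 to 3 orders of magnitude, and no test is read from them. Apod, Cthrc1, Fgl2, Agtr2, Ednrb and Sparcl1 had 0 counts in all 3 libraries of feeders labelled p53-defective, while Aqp1 had 3, Edil3 2 and Cdh13 3 over the group. With a floor of 3 counts summed over the 3 libraries (0.0608 CPM), Apod was at least 2277-fold, Cthrc1 at least 1479-fold, Fgl2 at least 1174-fold, Agtr2 at least 1092-fold, Ednrb at least 316.5-fold and Sparcl1 at least 273-fold lower. For the genes with a few counts the ratio was 1824 for Aqp1 (95% counting interval 623.6 to 8844), 1013 for Edil3 (279.8 to 8362) and 498.5 for Cdh13 (170 to 2418). The intervals and the floor cover counting error only. Among all genes tested, 38.4% were called lower in this comparison and 38.5% had lower groups that did not overlap.

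Absence of this depth was not limited to the listed genes. The lowest level of a listed gene in control feeders was 16.6 CPM (Sparcl1) and the highest count sum in the other feeders was 3. Of 8307 genes at or above that level, 58 (0.698%) lay within both limits, the 9 and 49 others. Just outside lay Adamts15, at 16.3 CPM in control feeders with 0 counts, and Atp9a, at 44.1 CPM with 4 counts, both named after their values were seen.

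Other cell types could be present in feeder cultures. Macrophage markers (14 genes) summed to 143.4 to 194.3 CPM in control feeders and 11.11 to 14.96 in feeders labelled p53-defective, where 7 were at 0, among them Adgre1 (4.28 against 0 CPM). Of 13 tested, 12 were lower, led by the lysozyme gene Lyz2 (113 against 0.0404 CPM), and 1, Cd14, was higher (3.12 against 7.66 CPM). Endothelial markers (15 genes) summed to 164.9 to 185.1 and 54.9 to 57.14 CPM, with 2 and 5 at 0. Among 13 tested, 8 were lower and 2 higher, and the list's highest gene was the VEGF receptor Flt1 (111.5 and 36.1 CPM). Neural crest and Schwann cell markers (12 genes) summed to 28.96 to 30.29 and 15.11 to 19.07 CPM, with 1 and 5 at 0. Among 9 tested, 7 were lower and 2 higher. Of 10 mesothelial markers 8 were higher and 2, the keratin genes Krt8 and Krt18, lower. Their sum went from 56.83 to 64.28 CPM in control feeders to 1300 to 1933 CPM, with the mesothelin gene Msln at 28.1 and 775 CPM. Pericyte and smooth muscle markers (12 genes) summed to 1207 to 1269 and 788.9 to 1637 CPM, with 9 lower and 1 higher. Skeletal muscle markers (11 genes) summed to 44.92 to 63.99 and 7.87 to 11.28 CPM, with 4 of 6 tested lower and 1 higher. Cartilage and bone markers (9 genes) summed to 39.9 to 41.81 and 29.7 to 34.52 CPM, with 2 of 6 tested lower and 1 higher. Among all genes tested, 38.4% were called lower. The part of these cell types in the absence of the 9 genes was not tested.

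Per transcript length (TPM), the genes spanned a wide range in control feeders. Cthrc1 stood highest at 182 ± 13.2 TPM and Apod next at 136 ± 14.4. Aqp1 (78.3 ± 6.34), Agtr2 (44.7 ± 18.1) and Fgl2 (35.7 ± 1.22) followed, and Cdh13 (14.8), Edil3 (14.1), Sparcl1 (10.3) and Ednrb (9.30) were lowest. With feeders removed the order differed. There Agtr2 led at 96.95 ± 7.66 TPM and Apod stood at 62.9 ± 4.31, while Cthrc1 was at 4.89 and none of the other genes was above that.

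Among the secreted proteins, Apod (Entrez 11815, GRCm38 chromosome 16 from 31296192 to 31314808) encodes apolipoprotein D, a lipocalin that binds small lipids. It stood at 125, 136 and 155 CPM in control feeders, 0 in each library of p53-defective feeders, 58.0, 56.7 and 68.8 on control feeders with ES cells, and 0.606, 0.250 and 0.475 on p53-defective feeders with ES cells. With feeders removed it stood at 72.9, 78.5 and 69.4 CPM, and with ATN161 at 12.4, 13.1 and 14.4. No 2 groups overlapped. Apod with feeders removed thus kept 53.2% of its level in control feeders, whereas with ATN161 it stood at 9.64%.

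Cthrc1 (Entrez 68588, chromosome 15 from 39076932 to 39087121) encodes a secreted collagen triple helix repeat protein linked to Wnt signalling through planar cell polarity. It stood at 86.5, 96.5 and 86.6 CPM in control feeders, 0 in p53-defective feeders, and 8.35, 7.43 and 9.39 in ES cells on control feeders. In the remaining groups it was low: 1.76, 1.94 and 1.43 on p53-defective feeders, 3.18, 1.87 and 3.30 with feeders removed, and 1.62, 1.72 and 1.87 with ATN161. Neighbouring groups among these 3 overlapped. Cthrc1 was thus highest in control feeders alone, and the co-culture on control feeders held 9.34% of that level.

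Fgl2 (Entrez 14190, chromosome 5 from 21372673 to 21378386) encodes a fibrinogen-like protein made by immune and stromal cells. It stood at 69.0, 72.4 and 72.5 CPM in control feeders and 0 in p53-defective feeders. Every culture with ES cells was far lower: 2.31, 2.19 and 2.53 on control feeders, 0.485, 0.187 and 0.059 on p53-defective feeders (12 counts in all), 1.70, 2.08 and 1.90 with feeders removed, and 1.57, 2.23 and 2.34 with ATN161. The p53-defective co-culture stood apart from the other ES groups. Of those, ATN161 overlapped both others, which did not overlap each other. Fgl2 overlaps the protein-coding gene Ccdc146 on the opposite strand, and whether counting used strand is not stated.

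Edil3 (Entrez 13612, chromosome 13 from 88821472 to 89323225) encodes a secreted protein with an RGD motif, the short sequence by which integrins bind matrix proteins. It stood at 37.8, 44.2 and 41.1 CPM in control feeders, 0, 0.058 and 0.061 in p53-defective feeders, and 18.6, 19.2 and 17.95 in ES cells on control feeders. It stood at 1.88, 2.25 and 3.15 on p53-defective feeders, at 7.30, 7.58 and 12.1 with feeders removed, where replicate 3 was highest, and at 2.58, 3.04 and 3.64 with ATN161. The last group overlapped only the p53-defective co-culture. Of its 2 transcript models, 1 took all 31, 36 and 53 counts on p53-defective feeders, but 34.8, 16.3 and 19.8% in control feeders and 30.0, 45.5 and 31.8% in ES cells on control feeders. These shares are the authors' estimates, and with ATN161 they ran from 20.9 to 69.5%.

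Sparcl1 (Entrez 13602, chromosome 5 from 104079108 to 104114088) encodes a matricellular relative of SPARC. It stood at 13.2, 14.0 and 22.5 CPM in control feeders, highest in replicate 3, and 0 in p53-defective feeders. With ES cells it was near the limit of counting: 1.03, 1.43 and 1.51 on control feeders, 0.182, 0.624 and 0.238 on p53-defective feeders (17 counts in all), 1.43, 1.23 and 1.14 with feeders removed, and 1.16, 1.83 and 1.45 with ATN161. The 3 ES groups other than the p53-defective co-culture overlapped. Another annotated gene lies on the opposite strand of Sparcl1.

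Of the receptors, Agtr2 (Entrez 11609, chromosome X from 21484624 to 21488833) encodes the angiotensin II type 2 receptor, which in many settings opposes the type 1 receptor. It stood at 46.3, 55.2 and 97.5 CPM in control feeders, highest in replicate 3, and 0 in p53-defective feeders. It was higher in ES cells on control feeders (162, 166 and 174) and with feeders removed (151, 169 and 176), every library above every control feeder library. The difference from control feeders alone was not tested. On p53-defective feeders it stood at 0.303, 0.499 and 0.713, and with ATN161 at 61.3, 57.5 and 70.7, within the range of control feeders. Agtr2 was the only listed gene above its control feeder level in any ES group, at 252.5% on control feeders and 249% with feeders removed.

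Ednrb (Entrez 13618, chromosome 14 from 103814615 to 103844508) encodes the endothelin receptor type B, known for its need in neural crest cells that form pigment cells and gut neurons. It stood at 20.6, 22.3 and 14.8 CPM in control feeders, 0 in p53-defective feeders, and 4.96, 4.72 and 4.52 in ES cells on control feeders. On p53-defective feeders it stood at 0.182, 0 and 0.238 (7 counts in all). It stood at 1.15, 1.28 and 1.46 with feeders removed and at 0.910, 0.862 and 0.571 with ATN161. No 2 groups next to each other in level overlapped, except that replicate 2 on p53-defective feeders, at 0, equalled the feeders alone.

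Aqp1 (Entrez 11826, chromosome 6 from 55336299 to 55348555) encodes the water channel aquaporin 1. It stood at 107, 120 and 106 CPM in control feeders, 0, 0 and 0.184 in p53-defective feeders, and 7.71, 8.62 and 8.56 in ES cells on control feeders. It stood at 2.06, 2.68 and 2.97 on p53-defective feeders (127 counts in all), 3.40, 3.95 and 4.93 with feeders removed, and 2.33, 2.53 and 2.39 with ATN161. The p53-defective co-culture and ATN161 overlapped, and the other groups were distinct.

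Cdh13 (Entrez 12554, chromosome 8 from 118140017 to 119324929) encodes T-cadherin. It stood at 27.7, 29.8 and 33.4 CPM in control feeders, 0.127, 0 and 0.061 in p53-defective feeders, and 3.68, 4.91 and 4.67 in ES cells on control feeders. Values were 0.485, 0.499 and 0.713 on p53-defective feeders, 2.96, 2.46 and 3.09 with feeders removed, and 2.48, 2.03 and 3.01 with ATN161, the last 2 groups overlapping. Cdh13 overlaps 5 annotated genes, 1 on its own strand and 4 on the other.

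**Figure D1:**
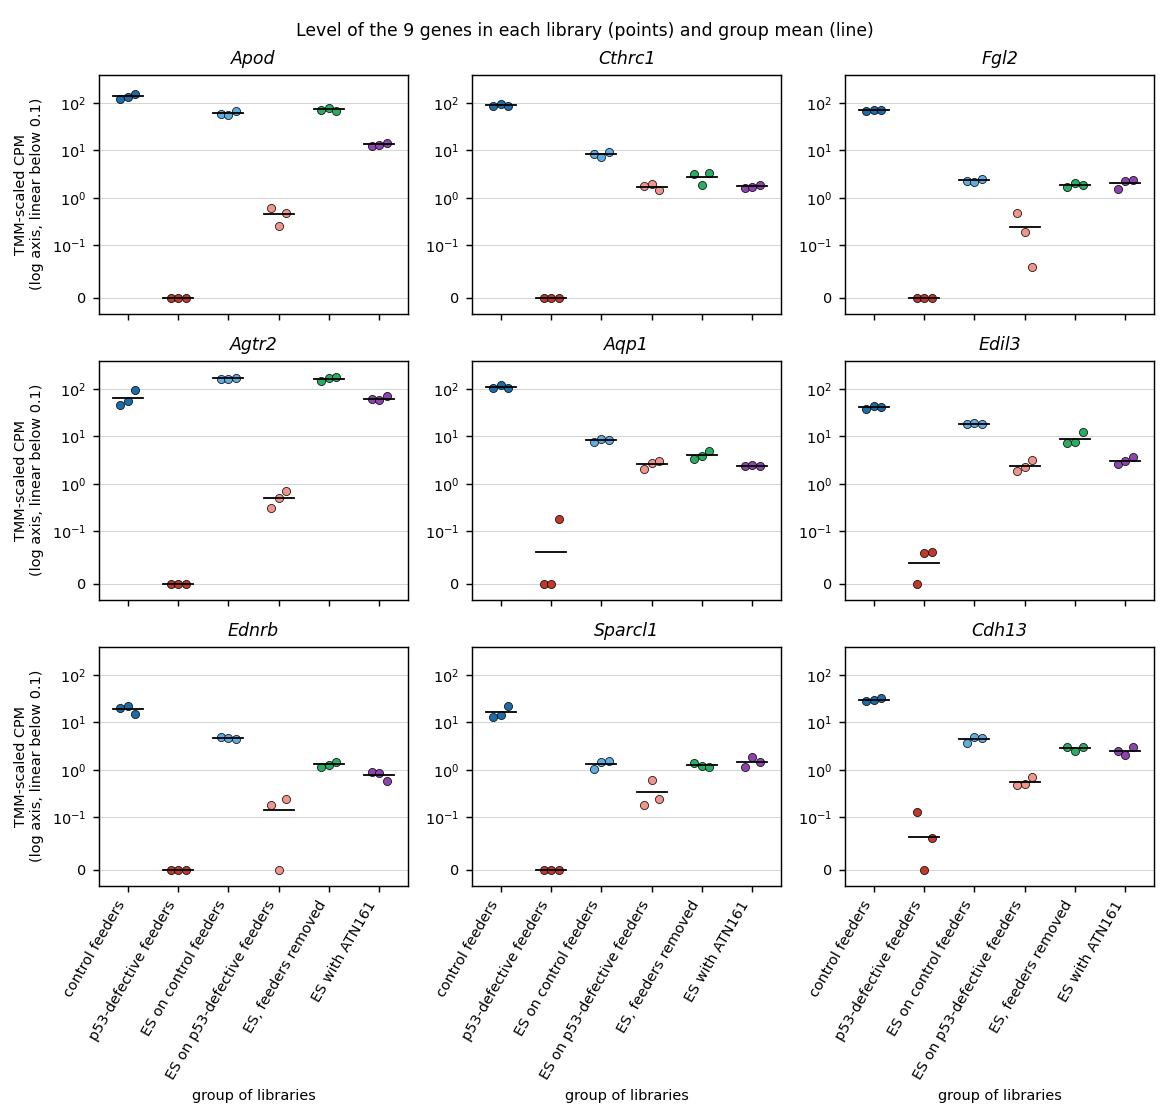
TMM-scaled CPM of each gene (log axis, linear below 0.1) in each library (points, 3 per group) with the group mean (line), for the 6 groups. In control feeders the genes lay between 13.2 and 155 CPM, in feeders labelled p53-defective at or near 0, and Agtr2 was higher in ES cells on control feeders (162 to 174 CPM) than in control feeders.

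The co-culture comparison asks how the p53 label of the feeders changes a culture of ES cells, and each library holds RNA of both cell types. None of its libraries was used to choose the genes, but libraries of feeders with the same labels were. A fall with TMM is therefore not independent of that choice, and 45 of the other 49 genes within the same limits fell too. All 9 genes were lower on p53-defective feeders by TMM scaling, with a median log2 fold change of -2.95 against -0.18 for all genes, yet on ES-specific scaling 3 stayed lower, 4 were higher and 2 were not called. Lower calls made up 46.7% of all genes tested with TMM, and 47.4% had lower groups that did not overlap, as all 9 did. Beside this, all 15 ES cell markers fell (median -3.87; 9 lower and 2 higher on ES-specific scaling), 11 of 20 fibroblast markers rose and 5 fell (19 and 1 on ES-specific scaling), and 9 of 10 mesothelial markers rose on both scalings. The part of these cell types in the falls of the 9 genes was not tested. ES-specific scaling moved the median of all genes to 3.20 and the split of calls from 5638 higher and 7191 lower to 13504 higher and 411 lower, so that 2.67% were called lower and 87.8% higher. The 9 genes shifted by 3.32 to 3.38, as did the median of all genes (3.38), so a value on this scaling is the TMM value taken relative to the ES-specific genes and is no separate result. In ES cells on p53-defective feeders, the median over the ES-specific genes was 9.25% of the level in ES cells on control feeders.

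The largest falls were those of Agtr2, Apod and Ednrb, which were lower on both scalings. Agtr2 fell 326-fold (log2 -8.35 ± 0.35 SE, edgeR adjusted p = 5.25e-12) and stood at -4.98 ± 0.29 on ES-specific scaling (adjusted p = 3.35e-14). Apod fell 135-fold (-7.08 ± 0.18, edgeR adjusted p = 4.14e-18) and stood at -3.71 ± 0.22 on ES-specific scaling (adjusted p = 2.57e-15). Ednrb, with 7 counts left, fell 31.9-fold (-4.99 ± 0.37, edgeR adjusted p = 7.49e-11) and stood at -1.67 ± 0.54 on ES-specific scaling (adjusted p = 0.00519). Agtr2 stood at 0.302%, Apod at 0.726% and Ednrb at 2.96% of their level on control feeders, below the ES-specific median of 9.25%.

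For the other 6 genes the falls with TMM were smaller than the shift between the scalings, so their sign depends on the scaling chosen. Cthrc1 stood at -2.30 ± 0.18 with TMM (edgeR adjusted p = 1.57e-10) but at 1.08 ± 0.21 on ES-specific scaling (adjusted p = 2.48e-05). Aqp1 stood at -1.69 ± 0.17 (adjusted p = 2.94e-09) but at 1.69 ± 0.19 (adjusted p = 1.33e-09), Sparcl1 at -1.92 ± 0.44 (adjusted p = 0.000493) but at 1.43 ± 0.49 (adjusted p = 0.00769), and Edil3 at -2.93 ± 0.19 (adjusted p = 1.75e-12) but at 0.45 ± 0.20 (adjusted p = 0.0382). Fgl2 (-3.23 ± 0.33, adjusted p = 1.2e-08) and Cdh13 (-2.95 ± 0.24, adjusted p = 1.48e-10) were lower with TMM and were not called on ES-specific scaling, at 0.12 ± 0.45 (adjusted p = 0.808) and 0.42 ± 0.30 (adjusted p = 0.181).

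**Figure D2:**
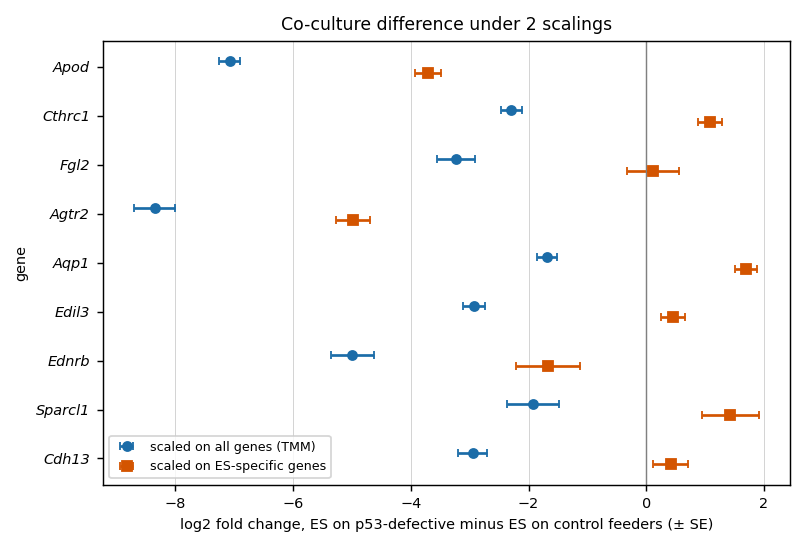
Log2 fold change (± SE) of each gene in ES cells on p53-defective minus control feeders, with TMM scaling (circles) and with scaling on 432 ES-specific genes (squares). All 9 genes were below 0 with TMM, while on ES-specific scaling Agtr2 (-4.98), Apod (-3.71) and Ednrb (-1.67) remained below it and the other 6 lay above.

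Although p53-defective feeders alone had at most 3 counts of any of these genes, each gene had counts in their co-culture. All 17 counts of Sparcl1 and all 28 of Cdh13 were assigned to predicted transcript models, so that with curated transcripts alone both genes stood at 0 there. The sums over 3 libraries were 127 for Aqp1, 120 for Edil3, 84 for Cthrc1, 28 for Cdh13, 25 for Agtr2, 22 for Apod, 17 for Sparcl1, 12 for Fgl2 and 7 for Ednrb. Set against ES cells with feeders removed, Aqp1 stood at 62.8%, Cthrc1 at 61.3%, Sparcl1 at 27.5%, Edil3 at 26.9%, Cdh13 at 19.96%, Fgl2 at 12.9% and Ednrb at 10.8%. The median over the 432 ES-specific genes was 8.04% of that reference. Agtr2 (0.306%) and Apod (0.603%) were far below it. Whether ES cells or feeders supplied this RNA was not tested.

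Among the other 49 genes absent from p53-defective feeders, 45 were called lower and none higher in the co-culture with TMM (median -3.30, edgeR), and 6 lower and 13 higher on ES-specific scaling (median 0.06). These genes, too, moved by the shift common to all genes.

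The comparison of ES cells with feeders removed against ES cells on control feeders asks what feeder removal leaves. Of the 9 genes 5 were lower, 1 was higher and 3 were not called, with a median log2 fold change of -0.64 against -0.01 for all genes. Lower calls made up 26.5% and higher calls 25.5% of all genes tested, and 7 of the 9 had groups that did not overlap, as did 67.0% of all genes. ES-specific scaling moved the median of all genes to -0.26 and the split of calls from 3924 higher and 4077 lower to 1463 and 6608.

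Ednrb fell most, by 1.86 ± 0.23 on the log2 scale (edgeR adjusted p = 1.36e-06), from 4.73 ± 0.218 to 1.299 ± 0.156 CPM. Cthrc1 fell by 1.59 ± 0.16 (adjusted p = 8.32e-08), Edil3 by 1.04 ± 0.15 (adjusted p = 6.91e-06), Aqp1 by 1.02 ± 0.15 (adjusted p = 7e-06) and Cdh13 by 0.64 ± 0.17 (edgeR adjusted p = 0.00381). The Cdh13 call was lost with curated transcripts alone (-0.21, adjusted p = 0.669). Fibroblast markers moved the same way: 13 of 20 fell and 2 rose (14 and 0 on ES-specific scaling), with a median of -0.41. Their part in the falls of these 5 genes was not tested.

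Apod and Agtr2 were not among the genes that fell. Apod stood at 73.6 ± 4.61 against 61.2 ± 6.64 CPM, a log2 fold change of 0.27 ± 0.09 (edgeR adjusted p = 0.0234). That call was lost on ES-specific scaling (0.01, adjusted p = 0.949), with no filter (0.22), with a filter of 5 CPM (0.21), with curated transcripts alone (0.23), without replicate 1 (0.18) or 2 (0.17) on control feeders, and without replicate 1 (0.22), 2 (0.17) or 3 (0.26) with feeders removed. Agtr2 stood at 165 ± 13.2 against 167.5 ± 5.74 CPM, with overlap and a log2 fold change of -0.02 (95% interval -0.39 to 0.35, edgeR adjusted p = 0.941). Fgl2 (-0.31, interval -0.70 to 0.09, adjusted p = 0.221) and Sparcl1 (-0.07, interval -0.70 to 0.57, adjusted p = 0.88) were not called either, but Fgl2 was on ES-specific scaling (-0.56, adjusted p = 0.0281).

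Relative to control feeders alone, the libraries labelled as feeders removed kept 53.2% of the Apod level, 21.95% of Edil3, 9.36% of Cdh13, 7.61% of Sparcl1, 6.75% of Ednrb, 3.70% of Aqp1, 3.10% of Cthrc1 and 2.65% of Fgl2, beside 249% for Agtr2. The 20 fibroblast markers kept a median of 18.2%, from 2.14 to 82.7%. Agtr2 lay above that range and the other 8 within it. Of the other 49 genes absent from p53-defective feeders, 3 stood at or above 100%, 6 at or above 50% and 21 under 10%, with a median of 12.7%.

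**Figure D3:**
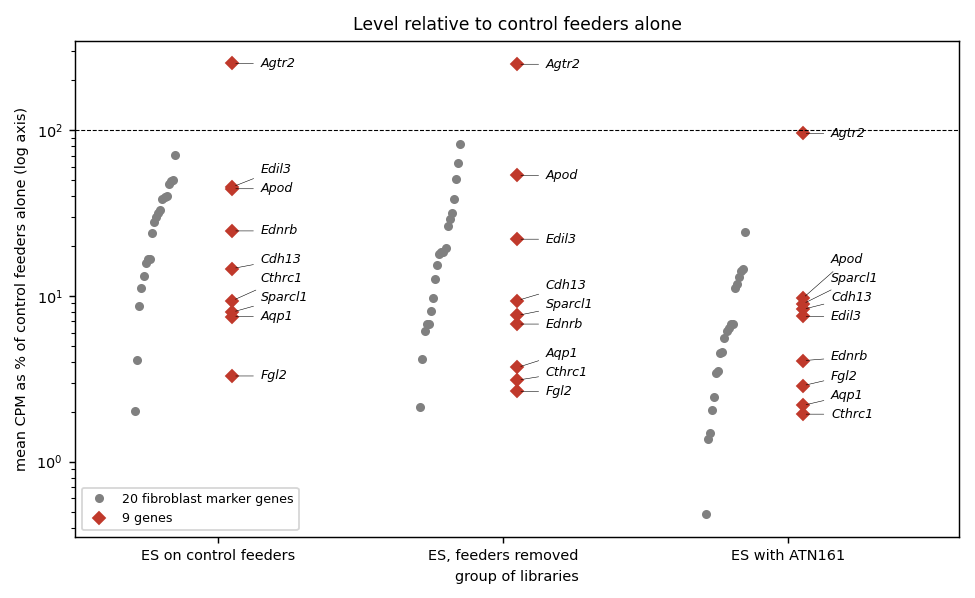
Mean CPM in ES cells on control feeders, with feeders removed and with ATN161, as a percentage of the mean in control feeders alone (log axis), for the 9 genes (diamonds) and 20 fibroblast markers (circles), with 100% dashed. Agtr2 stood at 252.5%, 249% and 95.2%, above every fibroblast marker in these 3 groups, and Fgl2 at 3.29%, 2.65% and 2.87%. ES cells on p53-defective feeders are not plotted, and there Agtr2 stood at 0.761% and the fibroblast markers at a median of 42.1%.

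With ATN161 in place of feeders, 7 of the 9 genes were lower than in ES cells on control feeders and 2 were not called. The median log2 fold change was -1.78 against 0.07 for all genes, and lower calls made up 28.0% of all genes tested. The same 7 genes had groups that did not overlap, as did 33.0% of all genes in that direction. This comparison shares the ES libraries on control feeders with those on p53-defective feeders and on feeder removal. ES-specific scaling moved the median of all genes to -0.36 and the split of calls from 5176 higher and 4307 lower to 711 and 7729.

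Ednrb (-2.59 ± 0.25, edgeR adjusted p = 2.37e-08) and Edil3 (-2.59 ± 0.18, adjusted p = 2.85e-11) fell 6.01-fold and 6.02-fold. Cthrc1 fell 4.82-fold (-2.27 ± 0.17, adjusted p = 5.11e-10) and Apod 4.59-fold (-2.20 ± 0.11, edgeR adjusted p = 5.59e-13), from 61.2 ± 6.64 to 13.3 ± 1.02 CPM. Aqp1 stood at -1.78 ± 0.16 (adjusted p = 3.8e-09), Agtr2 at -1.41 ± 0.19 (adjusted p = 1.84e-05) and Cdh13 at -0.82 ± 0.18 (edgeR adjusted p = 0.000354). Fgl2 (-0.20 ± 0.20, adjusted p = 0.402) and Sparcl1 (0.16 ± 0.31, interval -0.45 to 0.77, adjusted p = 0.674) were not called, although Fgl2 was on ES-specific scaling (-0.62, adjusted p = 0.0118). All 20 fibroblast markers fell, on both scalings, with a median of -2.05, and their part in these falls was not tested.

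The last comparison sets ATN161 against feeder removal, groups that the labels give as ES cells. Of the 9 genes 5 were lower with ATN161 and 4 were not called, with a median log2 fold change of -0.73 against 0.03 for all genes. Lower calls made up 26.8% of all genes tested, and 5 of the 9 had lower groups that did not overlap, as did 32.6% of all genes. ES-specific scaling moved the median of all genes to -0.14 and the split of calls from 4406 higher and 4121 lower to 2079 and 5239. Apod fell most, 5.52-fold (-2.46 ± 0.11, edgeR adjusted p = 2.19e-13), from 73.6 ± 4.61 to 13.3 ± 1.02 CPM. Edil3 fell 2.92-fold (-1.54 ± 0.19, adjusted p = 5.21e-07) and Agtr2 2.62-fold (-1.39 ± 0.19, adjusted p = 3.06e-05).

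Smaller falls were called for Aqp1 (-0.76 ± 0.18, edgeR adjusted p = 0.00132) and Cthrc1 (-0.68 ± 0.20, adjusted p = 0.00853), whose groups overlapped by 1 library, replicate 2 with feeders removed. Ednrb stood at -0.73 ± 0.32 (adjusted p = 0.0575) with groups that did not overlap, and was called with DESeq2 (-0.74, adjusted p = 0.0403), in a fit of these 2 groups alone (-0.76, adjusted p = 0.0174) and on ES-specific scaling (-0.89, adjusted p = 0.0273). Cdh13 (-0.18 ± 0.19, edgeR adjusted p = 0.443), Fgl2 (0.11 ± 0.21, adjusted p = 0.684) and Sparcl1 (0.23 ± 0.32, adjusted p = 0.569) were not called, and Cdh13 was called with curated transcripts alone (-1.06, adjusted p = 0.0283). In the same comparison 19 of 20 fibroblast markers fell (median -1.77, on both scalings 19), and the median over ES-specific genes was 108.7% of their level with feeders removed. Here, too, the part of the fibroblast markers was not tested.

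**Figure D4:**
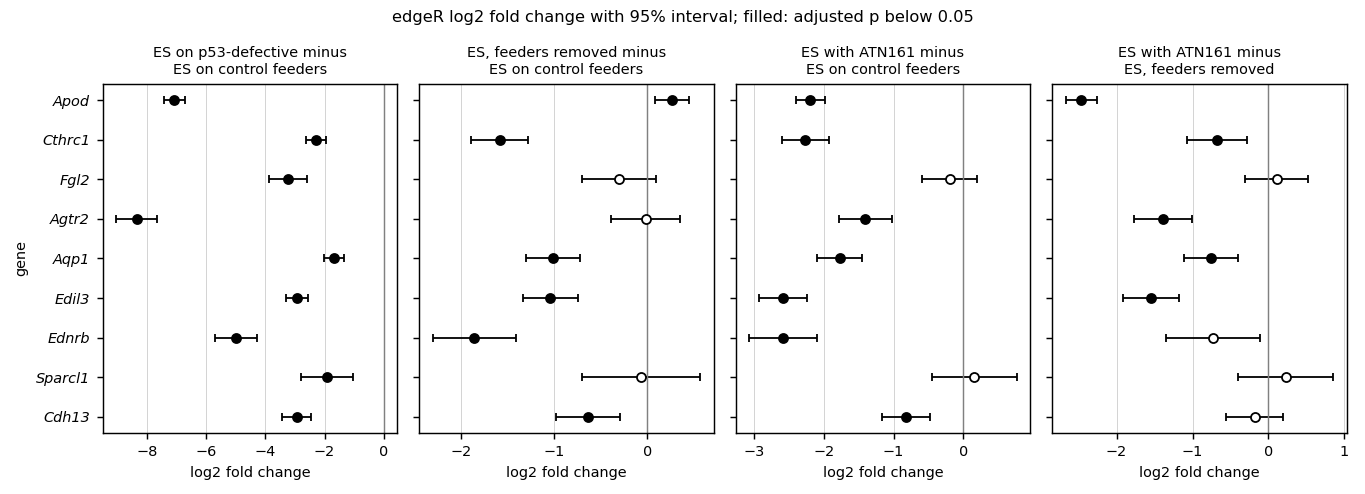
Log2 fold change of each gene (points) in the 4 tested comparisons, from edgeR with TMM scaling, filled where the adjusted p was below 0.05. Bars give the unadjusted 95% interval, derived from the F statistic of the test. All 9 genes were lower in the first panel, where the shift to ES-specific scaling puts 6 above 0, and Apod and Agtr2 lay at 0.27 and -0.02 after feeder removal but at -2.20 and -1.41 with ATN161.

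The families and pathways of the genes were described from lists written with the earlier results known. Counts in the feeders leave out the 9 genes, whose values there were used to choose them. Calls on ES-specific scaling between feeders alone rest on genes scarce there and are no separate check. In the feeders, where 38.4% of all genes were called lower, 7 of 8 tested angiotensin system genes were lower and 1 was higher (6 and 1 on ES-specific scaling). Besides Agtr2, the list's most abundant genes were Atp6ap2, the prorenin receptor (298 against 203 CPM), and Mme, the peptidase neprilysin (119.5 against 7.55 CPM). Agtrap, which encodes a protein bound to the type 1 receptor, stood at 70.1 against 13.9 CPM. Ren1, also called lower, was near the limit of counting, at 0.211 against 0 CPM. With ATN161 against feeder removal 3 of these 8 fell and none rose on either scaling, where 26.8% of all genes fell with TMM and 34.0% on ES-specific scaling, with Mme at -0.63 (edgeR adjusted p = 8.22e-06) beside Agtr2 at -1.39.

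Of 5 other endothelin genes tested in the feeders, 3 were lower and 2 higher on both scalings. The converting enzyme Ece1 stood at 197 against 30.6 CPM and the type A receptor Ednra at 42.9 against 2.84 CPM, whereas the ligand Edn1 went up, from 3.39 to 57.5 CPM. With ATN161 against control feeders 4 of these 5 fell on both scalings, where 28.0% of all genes fell with TMM and 50.2% on ES-specific scaling, with Ece1 at -1.19 ± 0.11 (edgeR adjusted p = 8.27e-09) beside Ednrb.

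Of 6 aquaporins tested, Aqp1 was the most abundant in control feeders at 111 ± 7.71 CPM, and Aqp5 next at 11.9 CPM. In feeders labelled p53-defective, 1 of the 5 others was lower and 1 higher on both scalings. The lower one was Aqp5, at 0.345 CPM there, and the higher one Aqp3 (0.115 against 0.689 CPM). Aqp3, a channel for water and glycerol, was the abundant one with ES cells, at 104.8 CPM on control feeders and 305 CPM with ATN161, a rise of 1.54 (edgeR adjusted p = 1.09e-11), while Aqp1 fell in the same comparison. All 7 other SPARC family genes were lower in feeders labelled p53-defective on both scalings. Sparc itself stood at 5071 against 2100 CPM, Fstl1 at 2909 against 381.5 CPM and Smoc2 at 249.5 against 1.94 CPM. Spock3, at 21.8 against 0 CPM, was absent as Sparcl1 was. Spock1 was near the limit of counting, at 0.114 against 0 CPM.

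Of 11 other fibrinogen-domain genes tested, 9 were lower in those feeders and none higher (8 and 0 on ES-specific scaling), with the matrix genes Tnc at 1383 against 32.4 CPM and Mfap4 at 1080 against 0.564 CPM. Of 12 other cadherins 8 were lower and 4 higher on both scalings. The mesenchymal cadherin gene Cdh11 stood at 760 against 134 CPM. Cdh3 (154 against 299.5 CPM) and the neural cadherin gene Cdh2 (75.7 against 176 CPM) went the other way. Among the lower calls, Cdh5 (0.325 against 0.0204 CPM) and Cdh15 (0.229 against 0 CPM) were near the limit of counting. Of 10 other genes in the list of RGD ligands, their integrins and discoidin proteins, 6 were lower and 3 higher (4 and 3 on ES-specific scaling). The most abundant was Spp1, osteopontin, at 2371 against 1152 CPM, and the largest fall was that of Itgb3, at 35.3 against 4.905 CPM. Of 12 other Wnt planar polarity genes 7 were lower and 4 higher (5 and 5 on ES-specific scaling), with Ptk7 at 517 against 319.5 CPM and Wnt11 at 1.73 against 60.1 CPM. Of 5 other lipocalins 2 were lower and 2 higher (1 and 2 on ES-specific scaling), with the retinol carrier Rbp4 going up from 0.747 to 40.7 CPM.

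For each gene the genes with the most similar levels were found by the mean absolute difference of log2(CPM + 0.1) over the 18 libraries. These include the feeder libraries that chose the genes, so similar genes tend to share that pattern by construction. Cdh13 was closest to Heph (0.26) and Bcl11b (0.40), Sparcl1 to Olfml1 (0.36) and Lrrn1 (0.56), Aqp1 to Lrrc17 (0.40) and Hoxd13 (0.65), and Edil3 to Pla2r1 (0.40) and Sdk1 (0.49). Cthrc1 was closest to Hoxd13 (0.44) and Lrrc17 (0.56), the same pair as Aqp1, Ednrb to Unc5c (0.56) and Slc2a10 (0.59), and Fgl2 to Lrrn1 (0.63) and Heph (0.67). Apod was closest to Kctd12 (0.93) and the proteoglycan gene Lum (1.04). Agtr2 had the most distant neighbours, Cspg4b (1.15) and Cd34 (1.23). Lum stood at 106.5 and 3.60 in the co-cultures, 137.5 with feeders removed and 14.97 with ATN161, in the same order as Apod for the ES groups.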

How the data were processed

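Messenger RNA of 18 mouse libraries was measured, 3 in each of 6 groups taken from the labels. Per the labels' protocols, Trizol was used to isolate RNA, and a TruSeq mRNA kit to build libraries. Tools given in the submitters' processing notes, with no role, are StringTie 1.3.3b, HISAT2 2.1.0, DESeq2 1.2.10 and SAMtools 1.4, and builds are mm10 and GRCm38. Strand use is not given in the sources used here. The authors deposited expected counts, estimated reads per RefSeq transcript, and TPM for 75416 transcripts, of which 32625 were curated. Expected counts were summed per gene to 19630 genes and rounded, and 89.3% of sums were whole within 0.05. The deposited TPM were summed per gene for comparisons between genes.

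The filter filterByExpr kept 15389 genes and removed 4241. The quasi-likelihood test of edgeR 4.0.16 (R 4.3.3, TMM, robust, two-sided) fitted all 18 libraries with 1 coefficient per group, and calls used a Benjamini-Hochberg adjusted p under 0.05. The fit was also run on data simulated for the co-culture comparison, with few changed genes and a fixed spread. Most genes were called in the real co-cultures, so that run does not check the calls there. Replicate correlations were 0.9892 to 0.9953, and the common biological coefficient of variation was 0.0792. ES-specific genes reached at least 10 CPM and an 8-fold excess over feeders.

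The 9 genes, lists, tests and alternatives were chosen with earlier results of these data known. Named genes were the 9 and the 2 most similar genes of each. From the lists, genes were taken among the 3 with the highest level in control feeders and up to 2 called with the smallest p. Not every list gene that met this was named, and others were named after their values were seen. Alternatives were DESeq2 1.42.0 size factors and Wald test, limma-voom (limma 3.58.1), 2 other filters, ES-specific scaling, curated transcripts, a replicate block, 2-group fits and leaving out each library.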

Additional observations from a re-analysis of the deposited data

How the results depend on the processing

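Over the 4 tested comparisons and their alternatives, 518 of 540 values of single genes kept their direction and side of the threshold, 10 lost a call, 6 gained a call and 6 changed sign. The sign changes all came from scaling the co-cultures on ES-specific genes, which moves every listed gene by 3.32 to 3.38: Cthrc1 1.08, Fgl2 0.12, Aqp1 1.69, Edil3 0.45, Sparcl1 1.43 and Cdh13 0.42. With the replicate block, 9 of the 9 genes were called in the co-cultures, 6 after feeder removal, 7 with ATN161 against control feeders and 5 with ATN161 against feeder removal, as without it, and 11384, 12796, 7966, 9448 and 8463 of all genes over the 5 comparisons. Across the 4 tested comparisons, same-numbered libraries correlated at -0.07 to 0.11 in their deviations from group means. With 3 libraries per group this cannot show whether they were paired or shared a batch. Leaving out each library gave 5 to 6 calls after feeder removal and changed no count elsewhere (9, 7 and 5). ES-specific scaling moved the split of calls between feeders alone from 5528 higher and 5905 lower to 7635 and 3981, although those genes are scarce in feeders. Genes with few counts limit precision: Ednrb rests on 7, Fgl2 on 12 and Sparcl1 on 17 counts over the 3 libraries on p53-defective feeders.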
